A study of Mus musculus with 8 samples.

Results

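The mitochondrial respiratory chain genes described here are 90 of the 19938 genes with a named probe set on the array, and they were compared between dendritic cells of the bone marrow and of the spleen. They were chosen by gene symbol alone, as the genes whose symbol begins with Nduf, Uqcr, Cox4, Cox5, Cox6, Cox7, Cox8 or Atp5, together with the 4 Sdh genes, Cyc1 and Cycs. Cox6a2 was left out by this rule, and Cox7c and Ndufb4, which had no probe set of their own, were not analysed here. Of the 90 genes, 34 encode subunits of complex I, 4 of complex II, 9 of complex III, 17 of complex IV and 17 of complex V, and 1 encodes cytochrome c. The other 8 are accessory genes that share the prefix, namely 7 complex I assembly factors (Ndufaf1 to Ndufaf7) and Ndufa4l2, a paralogue of Ndufa4. Ndufa4 was counted with complex IV, in which its protein resides, although its symbol dates from its assignment to complex I.

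The bone marrow group was 4 arrays of myeloid dendritic cells and the spleen group 4 arrays of classical dendritic cells, all sorted by flow cytometry from 8-week-old mice. Every mouse carried the genotype CX3CR1-gfp/+, in which 1 allele of the fractalkine receptor gene is replaced by a fluorescent reporter, so both groups share it and no group lacks it. The same 4 numbers label the arrays of both tissues and are read here as mouse numbers, 1 array per tissue and mouse, which the labels do not spell out, and which surface markers defined the sort is not stated in those sources. RNA was measured on an Affymetrix whole-transcript array, after labelling from between 100 pg and 2 ng of RNA, an input that needs strong amplification. Values are the deposited intensities on a linear scale, fold changes are log2 values of bone marrow minus spleen, errors are the standard errors (SE) of the limma fit, and a gene was called when its Benjamini-Hochberg adjusted p was under 0.05. Intensities of different probe sets depend on their probes, so levels are compared between tissues within a gene and not between genes.

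The respiratory chain sits in the inner mitochondrial membrane. Complex I takes electrons from NADH and complex II from succinate, ubiquinone carries them to complex III, cytochrome c carries them on to complex IV, and complex IV passes them to oxygen. Complexes I, III and IV pump protons, and complex V, the ATP synthase, lets the protons return and makes ATP. All the genes described here lie in the nucleus, and the subunits encoded in mitochondrial DNA were not analysed here. In dendritic cells, respiration is known as the main energy source of the resting state, while glycolysis rises on activation.

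The median intensity per array was 125 to 135 for bone marrow and 129 to 135 for spleen. As a description of the arrays, Pearson's r across genes was 0.993 to 0.996 among bone marrow arrays, 0.991 to 0.995 among spleen arrays and 0.968 to 0.976 between tissues. Of 15 classical dendritic cell markers, 1 was higher and 5 were lower in bone marrow. Their summed intensity ranged from 81940 to 87137 in bone marrow and from 82229 to 86631 in spleen. Most of that sum came from the uncalled H2-Ab1, H2-Aa, H2-Eb1 and Cd74, so it says little of the other markers. Xcr1 was 11.2-fold, Zbtb46 2.43-fold, Flt3 2.07-fold, Dpp4 1.49-fold and Itgax 1.32-fold lower in bone marrow, and Cd209a was 2.02-fold higher. Sums of the markers of other cells differed more. Of the marker lists, 18 of 19 neutrophil genes (summed intensity 23945 to 32654 in bone marrow and 2710 to 3463 in spleen), 8 of 10 monocyte genes (29055 to 32940 and 11634 to 13674), 12 of 15 macrophage genes (28436 to 40744 and 6579 to 7506) and 7 of 8 erythroid genes (1416 to 1969 and 671 to 920) were higher in bone marrow, and no gene of these lists was lower. Of 11 B cell genes 3 were higher and 6 lower (1938 to 2073 and 3655 to 4129), of 10 T and NK cell genes 5 were lower (1373 to 1855 and 3218 to 3541), and the 9 genes of plasmacytoid dendritic cells had 3 higher and 3 lower members (6351 to 8968 and 5227 to 5793). These sums moved with tissue, as every fold change below does, and their part in the respiratory chain values was not tested. In RNA of a whole sorted sample, fewer cells of a type and less RNA per cell cannot be told apart.

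The respiratory chain genes stood at nearly equal levels in the sorted dendritic cell samples of both tissues. Of the 90 genes, 5 were lower in bone marrow and 0 were higher (limma adjusted p under 0.05), which is 5.56% of them, against 18.5% of all 19938 genes, 9.26% higher and 9.2% lower. Without a correction for multiple tests, 2 of the 90 were higher and 13 lower at a p under 0.05, against 12.8% of all genes higher and 13.9% lower (26.6% together). The genes are mostly bright, and among the 11963 genes left after the dimmest 40% were removed the called share was 29.1%. Their errors were like those of other genes, with a median SE of 0.090 against 0.094 over all genes. Of the 5 called genes, 4 were complex I assembly factors and 1, Ndufs4, was a subunit. Over the 16 alternatives the number of genes called lower reached at most 7, and quantile normalization added Ndufa4 and Uqcrc2. Without bone marrow replicate 1 or without spleen replicate 4, 1 gene was called higher. The number of genes called lower was 3 when the mouse was a replicate block. It was also 3 without bone marrow replicate 1, without spleen replicate 3, and with spleen replicates 3 and 4 both removed, and 2 without bone marrow replicate 3 or spleen replicate 2.

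The 82 structural subunits and cytochrome c had log2 fold changes between -0.33 and 0.31, with a median of -0.055, and the 95% interval lay within 0.5 either way for 79 of them, which is 1.41-fold. Over all genes, 78.3% had an interval that narrow. Fold changes below 0 were seen in 54 of the 82, or 65.9%, against 52.2% of all genes. The median over all genes was -0.0071, which is a median fold of 0.995, against 0.963 for the subunits. The plot of fold changes shows all 90 genes with their intervals.

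**Figure D1:**
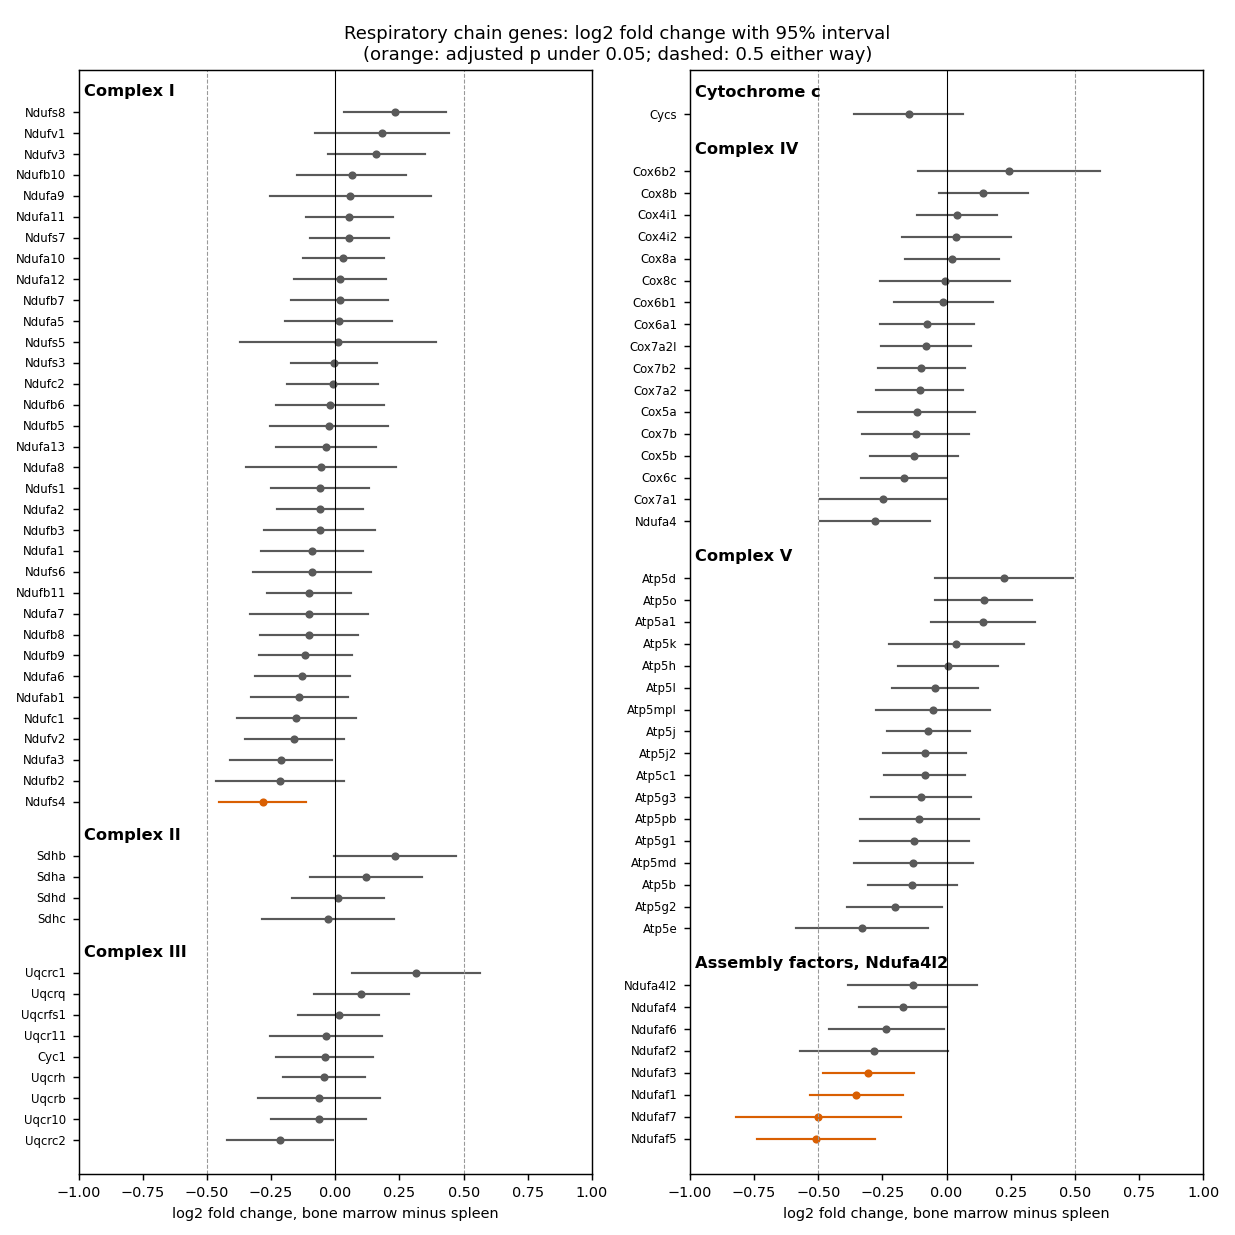
Log2 fold change of each of the 90 genes (x axis, bone marrow minus spleen, log2) with its 95% interval from limma, grouped by complex and ordered by fold change. Points in orange were called at an adjusted p under 0.05: Ndufs4 in complex I and the assembly factors Ndufaf1, Ndufaf3, Ndufaf5 and Ndufaf7, all below 0.

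Complex I, the NADH dehydrogenase, is the largest of the complexes, with an arm in the matrix that takes up electrons and an arm in the membrane that pumps protons. Of its 34 measured subunits 1 was lower and 0 were higher, and the median log2 fold change was -0.047, with a range of -0.28 to 0.23. At an unadjusted p under 0.05, 1 was higher and 2 were lower. The subunits of the flavin and iron-sulphur input module (10 genes) had a median of -0.075, those of the quinone-binding module (5 genes) 0.055, and those of the membrane arm (18 genes) -0.047. All 34 intervals lay within 0.5 either way.

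Ndufs4 encodes an accessory subunit that holds the input module onto the rest of complex I, and its loss in mice causes a fatal brain disease. It stood at 1344, 1421, 1366 and 1487 in bone marrow replicates 1 to 4, against 1556, 1709, 1778 and 1794 in spleen replicates 1 to 4. The highest bone marrow array lay below the lowest spleen array, and Ndufs4 was lower in bone marrow in 4 of 4 mice. The log2 fold change was -0.28 ± 0.08 SE (n = 4 per group, limma adjusted p = 0.022), a 1.22-fold difference. A replicate block by mouse gave an adjusted p of 0.051. Removing bone marrow replicate 1 or 3, spleen replicate 2, 3 or 4, or spleen replicates 3 and 4 at once ended the call as well (adjusted p up to 0.18).

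The catalytic subunits of complex I gave no call. Ndufv1, which binds NADH and the flavin, stood at 857, 1069, 903 and 1047 in bone marrow, against 926, 938, 904 and 665 in spleen (0.18 ± 0.12, adjusted p = 0.41). The groups overlapped, and spleen replicate 4 lay far below the other spleen arrays. Ndufs1, the largest iron-sulphur subunit, averaged 358 in bone marrow, against 373 in spleen (-0.06 ± 0.09, adjusted p = 0.79). Ndufs8, an iron-sulphur subunit of the quinone-binding module named here after its values were seen, was the 1 gene of all 90 whose bone marrow arrays all lay above the spleen arrays. It stood at 753, 852, 778 and 873 in bone marrow, against 714, 745, 718 and 598 in spleen (0.23 ± 0.09, adjusted p = 0.11). In 7 of the 90 genes all bone marrow arrays lay below the spleen arrays. Over all genes, 10.4% were fully above and 10.2% fully below, 20.6% together. These 7 were the called Ndufs4, Ndufaf1, Ndufaf3 and Ndufaf5 and the uncalled Ndufa4, Cox6c and Atp5e.

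Complex II, succinate dehydrogenase, is shared with the tricarboxylic acid cycle. None of its 4 subunits was called by limma, and 0 had an unadjusted p under 0.05. Sdhb, the iron-sulphur subunit, stood at 1347, 1836, 1568 and 1863 in bone marrow, against 1268, 1512, 1341 and 1470 in spleen (0.23 ± 0.11, adjusted p = 0.20). It was higher in bone marrow in 4 of 4 mice, though the arrays of the tissues overlapped, and it passed the threshold without bone marrow replicate 1 (adjusted p = 0.043). Sdha, the flavin subunit that oxidises succinate, averaged 2022 in bone marrow, against 1859 in spleen (0.12 ± 0.10, adjusted p = 0.55). The membrane anchors Sdhc and Sdhd had log2 fold changes of -0.03 ± 0.12 and 0.01 ± 0.08. The median of complex II was 0.066, and complexes I, III, IV and V had medians below 0. Without bone marrow replicate 1 the medians of complexes I and III were 0.0024 and 0.011, and both were also above 0 when spleen replicates 3 and 4 were both removed.

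Complex III moves electrons from ubiquinol to cytochrome c. Of its 9 measured subunits 0 were called by limma, while 1 was higher and 1 lower at an unadjusted p under 0.05, and the median was -0.042. These were the paired core proteins, Uqcrc1 and Uqcrc2. Uqcrc1 stood at 1735, 2151, 1869 and 2138 in bone marrow, against 1799, 1734, 1570 and 1274 in spleen (0.31 ± 0.12, adjusted p = 0.085), and its bone marrow replicate 1 overlapped the spleen arrays. Uqcrc2 averaged 1915 in bone marrow, against 2225 in spleen (-0.22 ± 0.09, adjusted p = 0.16), and passed the threshold with quantile normalization (adjusted p = 0.0497). The redox subunits lay close to equality. Uqcrfs1, the Rieske iron-sulphur protein, had a log2 fold change of 0.01 ± 0.07 with a 95% interval of -0.15 to 0.17, and Cyc1, cytochrome c1, had -0.04 ± 0.09 with an interval of -0.23 to 0.15. Cycs, the mobile carrier cytochrome c that also triggers caspase activation when it leaves mitochondria, averaged 2327 in bone marrow, against 2579 in spleen (-0.15 ± 0.10, adjusted p = 0.41).

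Complex IV, cytochrome c oxidase, has subunits that occur in tissue-specific isoforms. Of its 17 measured subunits 0 were called by limma, 0 were higher and 2 were lower at an unadjusted p under 0.05, and the median was -0.081. The 10 ubiquitous subunits had a median of -0.11 and a range of -0.28 to 0.04. Ndufa4 stood at 1741, 1931, 1744 and 1923 in bone marrow, against 1988, 2140, 2129 and 2693 in spleen (-0.28 ± 0.10, adjusted p = 0.075). All its bone marrow arrays lay below the spleen arrays, and it passed the threshold with quantile normalization or without spleen replicate 1 (adjusted p down to 0.044). Cox4i1, a core regulatory subunit, averaged 3728 in bone marrow and 3622 in spleen (0.04 ± 0.07, 95% interval -0.11 to 0.20).

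The 6 isoforms known for restricted expression in other tissues had a median log2 fold change of 0.02 and a range of -0.25 to 0.24. Cox4i2, the isoform of lung and of low oxygen, averaged 168 in bone marrow and 164 in spleen (0.04 ± 0.10). The heart and muscle isoforms Cox7a1 and Cox8b had log2 fold changes of -0.25 ± 0.11 (adjusted p = 0.19) and 0.14 ± 0.08 (adjusted p = 0.30), against -0.11 ± 0.08 for the widely expressed Cox7a2 and 0.02 ± 0.08 for Cox8a. The testis isoforms Cox7b2 and Cox8c had -0.10 ± 0.08 and -0.01 ± 0.12, and Cox7b had -0.12 ± 0.10. Cox6b2, another testis isoform, averaged 298 in bone marrow, against 252 in spleen (0.24 ± 0.16, adjusted p = 0.42) and passed the threshold as higher without spleen replicate 4 (adjusted p = 0.037), while Cox6b1 had -0.01 ± 0.09. Cox7a2l, which helps join complexes III and IV into supercomplexes, had -0.08 ± 0.08. The files hold no detection call, so whether the dim isoforms lay above background is unknown. Ndufa4l2, the Ndufa4 paralogue known to rise in low oxygen, averaged 73.1 in bone marrow, against 80.0 in spleen (-0.13 ± 0.12, adjusted p = 0.58).

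Complex V makes ATP in its F1 head, driven by the rotation of a membrane ring of c subunits. Of its 17 measured subunits 0 were called by limma, 0 were higher and 2 were lower at an unadjusted p under 0.05, and the median was -0.085. Atp5b, the catalytic beta subunit, averaged 4343 in bone marrow, against 4765 in spleen (-0.13 ± 0.08, adjusted p = 0.35). Atp5a1, the alpha subunit, lay on the other side, with a bone marrow mean of 2311 and a spleen mean of 2094 (0.14 ± 0.09, adjusted p = 0.40). Atp5e, the small epsilon subunit of the central stalk, stood at 1291, 1181, 1113 and 1138 in bone marrow, against 1396, 1303, 1365 and 1943 in spleen (-0.33 ± 0.12, adjusted p = 0.077). The groups did not overlap, and spleen replicate 4 was well above the other spleen arrays. Atp5g1, Atp5g2 and Atp5g3 encode the same c subunit from 3 separate genes, and had log2 fold changes of -0.13 ± 0.10, -0.20 ± 0.09 and -0.10 ± 0.09.

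Set side by side within mice, complexes II and IV lay on 1 side of 0 in all 4 mice and complexes I, III and V on both. The mean difference over the subunits of complex I within mice 1 to 4 was -0.12, 0.09, -0.16 and 0.03 on the log2 scale. Complex II gave 0.004, 0.17, 0.09 and 0.07, and was the 1 complex above 0 in all 4 mice. Complex III gave -0.08, 0.12, -0.09 and 0.03. Complex IV gave -0.03, -0.01, -0.05 and -0.13, below 0 in all 4 mice, and complex V gave -0.08, 0.07, -0.13 and -0.08. These means are descriptions over genes that share arrays, and no test was made of the complexes against each other. Counting Ndufa4 with complex I moved the medians of complexes I and IV to -0.056 and -0.078.

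**Figure D2:**
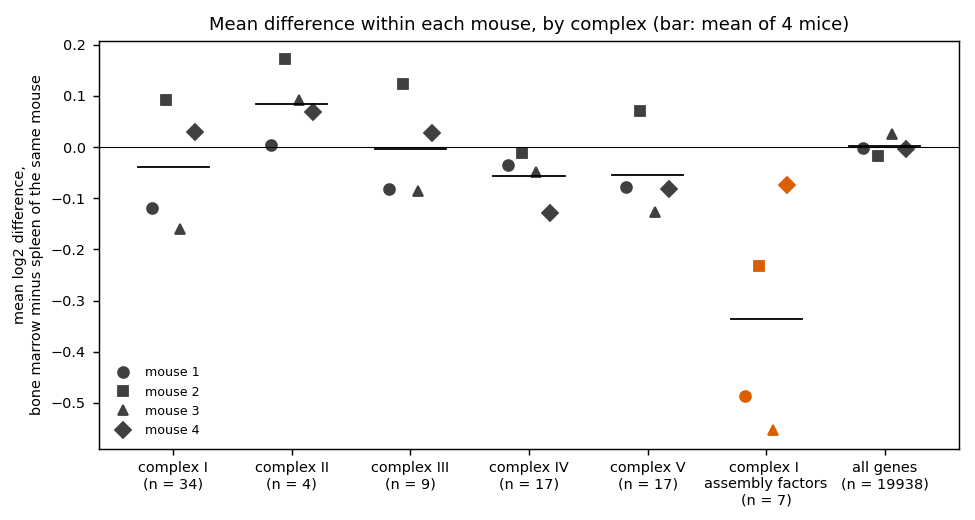
Mean log2 difference between the bone marrow and the spleen array of the same mouse (y axis, log2), over the genes of each complex, of the complex I assembly factors and of all genes. Each symbol is a mouse and the bar is the mean of 4 mice: the complexes lie between -0.16 and 0.17, and the assembly factors between -0.55 and -0.07.

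The 7 complex I assembly factors with the Ndufaf prefix were the exception within the 90 genes. These proteins help to build complex I and are absent from the finished complex. Of the 7, 4 were lower in bone marrow and 0 were higher (limma), or 57.1% called against 18.5% of all genes, with a median log2 fold change of -0.30, and all 7 fold changes were below 0. The mean over the 7 genes was lower in bone marrow in all 4 mice, by -0.49, -0.23, -0.55 and -0.07 on the log2 scale. Without bone marrow replicate 3, spleen replicate 1 or spleen replicate 2, 2 of the 7 were called. Ndufaf1 and Ndufaf5 were called under every alternative tried. Foxred1, Nubpl, Timmdc1, Ecsit, Acad9, Tmem126b and Tmem186 also help to build complex I but lack the prefix, so they lie outside the 90 genes. None of them was called, and their log2 fold changes ran from -0.25 to 0.07. They are counted below among the other assembly factors.

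Ndufaf5, which hydroxylates an arginine of the complex I subunit Ndufs7, stood at 236, 222, 191 and 280 in bone marrow, against 324, 315, 347 and 327 in spleen. All spleen arrays lay above all bone marrow arrays. It was 1.42-fold lower in bone marrow (-0.51 ± 0.11 SE, 4 arrays per tissue, limma adjusted p = 0.0038), and lower in 4 of 4 mice. Ndufaf1, which acts on an early intermediate of the membrane arm, stood at 181, 205, 192 and 210 in bone marrow, against 263, 243, 268 and 232 in spleen. It too showed no overlap and was 1.28-fold lower (-0.35 ± 0.08, adjusted p = 0.0087). Ndufaf3, which works on the quinone-binding module together with Ndufaf4, stood at 202, 209, 178 and 217 in bone marrow, against 254, 259, 237 and 244 in spleen (-0.30 ± 0.08, adjusted p = 0.019). Its call ended without bone marrow replicate 3 or without spleen replicate 1 or 2 (adjusted p up to 0.065).

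Ndufaf7, a methyltransferase of complex I assembly, stood at 301, 454, 334 and 457 in bone marrow, against 566, 528, 634 and 440 in spleen (-0.50 ± 0.15, limma adjusted p = 0.032). The tissues overlapped, because spleen replicate 4 lay below bone marrow replicates 2 and 4, and mouse 4 showed no fall. The adjusted p was 0.0501 with the mouse as a replicate block. Median centring ended the call too, as did removing bone marrow replicate 1 or 3, spleen replicate 1, 2 or 3, or spleen replicates 3 and 4 at once (adjusted p up to 0.099). The uncalled Ndufaf2, Ndufaf4 and Ndufaf6 had log2 fold changes of -0.28 ± 0.13, -0.17 ± 0.08 and -0.23 ± 0.10.

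**Figure D3:**
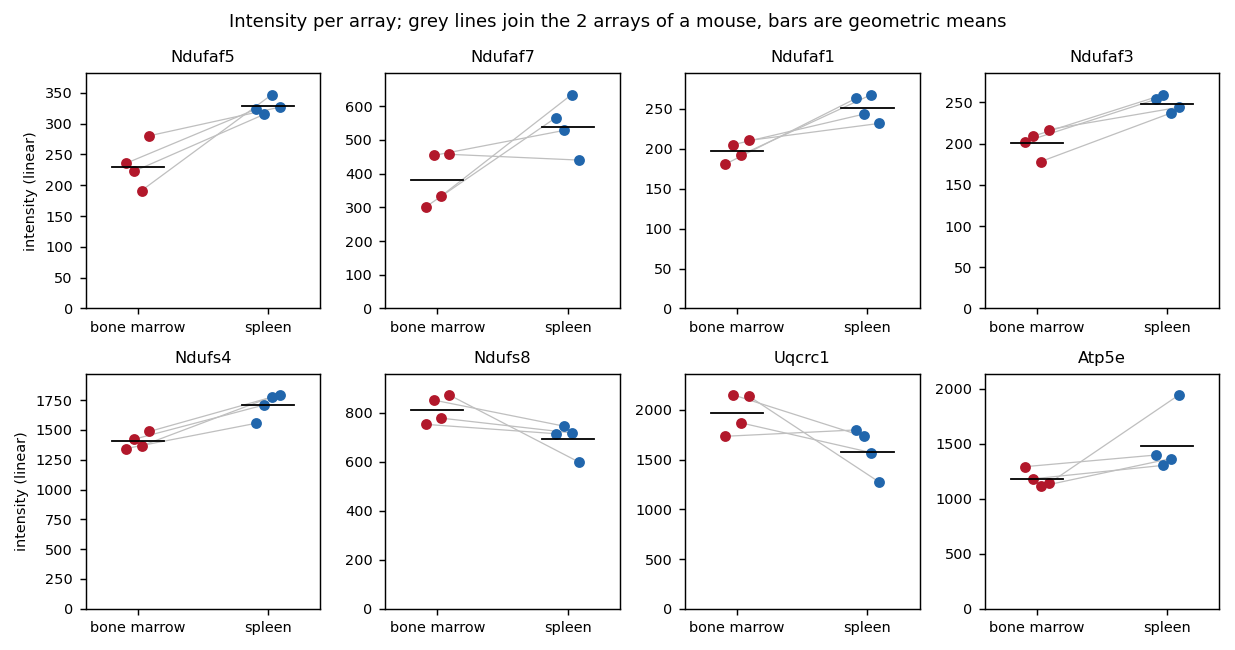
Deposited intensity (y axis, linear, from 0) of the 5 called genes Ndufaf5, Ndufaf7, Ndufaf1, Ndufaf3 and Ndufs4, and of the uncalled Ndufs8, Uqcrc1 and Atp5e, in the 4 bone marrow arrays (left, red) and the 4 spleen arrays (right, blue). Grey lines join the arrays of a mouse and black bars are geometric means: Ndufaf5, Ndufaf1, Ndufaf3, Ndufs4 and Atp5e lie fully lower in bone marrow, Ndufs8 fully higher, and Ndufaf7 and Uqcrc1 overlap.

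Within bone marrow the 90 genes moved together from array to array. Their median deviation from the bone marrow group mean was -0.080, 0.092, -0.071 and 0.067 on the log2 scale in replicates 1 to 4, while the median over all genes deviated by at most 0.018. Bone marrow replicate 2 was the highest of its group in 52 of the 90 genes and replicate 1 the lowest in 47, against 19.7% and 21.8% of all genes. In spleen the medians were -0.031, -0.014, 0.008 and 0.038. Spleen replicate 1 was the lowest in 35 genes, and replicate 4 was the highest in 39 and the lowest in 24. Over all genes these shares were 18.6%, 27.2% and 27.1%. Beside them, in bone marrow replicates 1 to 4, summed neutrophil genes reached 30789, 23945, 32654 and 31552. Summed macrophage genes reached 30151, 40744, 35326 and 28436. Summed monocyte genes (29055, 32940, 29475 and 31207) had replicates 2 and 4 above 1 and 3. So did the sums of plasmacytoid (6351, 7357, 7263 and 8968) and classical dendritic cell genes (85250, 87137, 81940 and 85301). The neutrophil, macrophage, erythroid, B cell and T and NK cell sums did not. The part of any of these in the deviations was not tested. Bone marrow replicates 2 and 4 thus stood above replicates 1 and 3 in most of the genes, with 77 and 78 of the 90 above the group mean, against 16 and 12. This order was not particular to the 90 genes. Of the related lists described below, summed mitochondrial ribosome genes reached 38690, 44588, 39285 and 44616 in bone marrow replicates 1 to 4. Summed tricarboxylic acid cycle and pyruvate dehydrogenase genes reached 16916, 19180, 17023 and 19449, and the other assembly factors 18542, 20789, 19074 and 21023. The other enzymes that feed ubiquinone did not share the order (3804, 4642, 4248 and 4221).

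**Figure D4:**
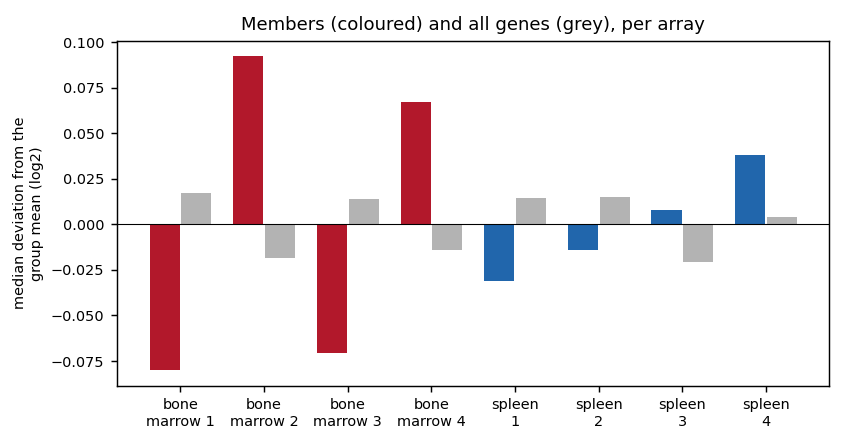
Median deviation of the 90 genes from their group mean (y axis, log2; red for bone marrow arrays, blue for spleen arrays) and of all genes (grey), for each of the 8 arrays. The coloured bars of bone marrow run from -0.080 to 0.092 and those of spleen from -0.031 to 0.038.

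Transcription of many nuclear respiratory genes is driven by nuclear respiratory factor 1, encoded by Nrf1, and by the ETS-family factor whose subunits are encoded by Gabpa and Gabpb1. RefSeq promoters of build GRCm38.p6, from 250 bases before to 50 bases after the gene start, were found for 74 of the 90 genes. The palindromic NRF1 motif, whose 10 letters are the capitals below and read the same on both strands, occurred in 7 of these 74 (9.46%), against 1.61% of the 15614 tested genes with a promoter. The ETS letters CCGGAAGT, searched on both strands, occurred in 5 of the 74 (6.76%), against 6.01% of the tested genes, and no promoter of the 74 held both motifs (12 held either). The 7 promoters with the NRF1 letters are shown because they include that of the gene with the largest fall, Ndufaf5, and that of the uncalled gene with the highest fold change of the 90, Uqcrc1. Capitals mark the NRF1 letters, and each stretch is written 5′ to 3′ on the strand of its gene.
Ndufaf5, chr2:140170652-140170681, plus strand, letters from base 17 after the start: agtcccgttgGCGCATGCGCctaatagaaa
Uqcrc1, chr9:108936668-108936697, plus strand, letters from base 31 after the start: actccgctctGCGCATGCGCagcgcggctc
Atp5g2, chr15:102671070-102671099, minus strand, letters from 42 bases before the start: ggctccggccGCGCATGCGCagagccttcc
Ndufaf4, chr4:24897960-24897989, plus strand, letters from 113 bases before the start: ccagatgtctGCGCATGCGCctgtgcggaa
Cox6a1, chr5:115349101-115349130, minus strand, letters from 162 bases before the start: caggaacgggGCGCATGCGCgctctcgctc
Ndufa11, chr17:56717692-56717721, plus strand, letters from 60 bases before the start: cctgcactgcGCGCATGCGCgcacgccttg
Atp5k, chr5:108434430-108434459, minus strand, letters from 50 bases before the start: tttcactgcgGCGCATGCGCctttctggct
The 7 genes had log2 fold changes from -0.51 to 0.31 with a median of -0.075, and the other 67 had a median of -0.071. A match of letters is a description and shows no binding.

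The genes around the respiratory chain were described from lists of related mitochondrial genes, and some of them differed far more than the subunits did. Among 17 genes of the tricarboxylic acid cycle and pyruvate dehydrogenase, 2 were higher and 2 lower (limma, 23.5% called, median log2 fold change -0.03). The share called in this and the lists below stands beside 18.5% of all genes. Mdh2, the mitochondrial malate dehydrogenase that makes NADH for complex I, stood at 2131, 2244, 1869 and 2659 in bone marrow, against 7986, 7742, 6664 and 6191 in spleen. It was 3.22-fold lower in bone marrow (-1.69 ± 0.12 SE, n = 4 per group, adjusted p = 3.5e-07), without overlap. Idh2, the isocitrate dehydrogenase that makes NADPH, was 1.36-fold lower, and Pdha1, a subunit of pyruvate dehydrogenase, was 1.38-fold higher. Idh3g, a subunit of the NADH-making isocitrate dehydrogenase, was 1.19-fold higher, and its call ended in 9 of 16 alternatives (adjusted p = 0.088 with the replicate block). Spleen replicate 4 left out, or quantile normalization, gave 4 lower genes in this list.

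Of 38 other respiratory chain assembly factors, 5 were lower and 0 higher (limma, 13.2% called, median -0.09), and the lower count was 3 without bone marrow replicate 3 and 2 without spleen replicates 3 and 4 together. Sdhaf1, which helps insert iron-sulphur clusters into Sdhb, stood at 563, 628, 526 and 767 in bone marrow, against 1095, 881, 1120 and 1044 in spleen (-0.75 ± 0.12). Sdhaf4, which protects free Sdha, was 1.54-fold lower, a call that ended when spleen replicates 3 and 4 were both removed (adjusted p = 0.052). Both act on complex II, none of whose subunits was called. Sdhaf2 and Sdhaf3, which also act on complex II, were uncalled (-0.04 ± 0.08 and -0.14 ± 0.09). Of 7 other enzymes that feed electrons to ubiquinone, 1 was lower (14.3% called). It was Gpd2, the mitochondrial glycerol phosphate dehydrogenase, with means of 330 in bone marrow and 547 in spleen (-0.73 ± 0.08). The count of higher genes in this list was 0 in the limma fit used throughout (smallest adjusted p of such a gene 0.051, for Etfb, a subunit of the electron transfer flavoprotein), but 2 with quantile normalization, and 1 with the replicate block, without the dimmest 40% of genes, with probe sets averaged, with an intensity trend in eBayes, and without bone marrow replicate 1. Of 7 genes for ATP export, 1 was lower (14.3% called). It was Slc25a4, an ADP/ATP carrier, with means of 1552 in bone marrow and 2317 in spleen (-0.58 ± 0.09). The carrier paralogue Slc25a5, named after its values were seen, averaged 2318 in bone marrow and 2356 in spleen (-0.02 ± 0.09).

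Among 13 transcriptional regulators, 2 were higher and 3 lower (limma, 38.5% called). The coactivator Ppargc1b stood at 193, 179, 169 and 170 in bone marrow, against 112, 97.3, 94.3 and 103 in spleen (0.81 ± 0.08), whereas its paralogue Ppargc1a, averaging 57.8 in bone marrow and 92.8 in spleen, was 1.61-fold lower. Ppargc1a was among the dimmest 40% of genes, and whether it lay above background is unknown. Nfe2l2, a factor of the oxidative stress response, was 2.11-fold higher. Gabpb1 was lower, averaging 319 in bone marrow and 447 in spleen, with a call that ended when spleen replicates 3 and 4 were both removed (adjusted p = 0.080; 1 regulator was then lower), while its partner Gabpa had a log2 fold change of 0.04 ± 0.12 and Nrf1 of 0.15 ± 0.08, both uncalled. Of 11 genes of mitochondrial DNA maintenance and transcription, 1 was lower and 1 higher (18.2% called, near the 18.5% of all genes). The lower gene was the ribosomal RNA methyltransferase Tfb1m (1.51-fold), and the higher was the DNA polymerase Polg (1.46-fold). Of 77 mitochondrial ribosome genes 6 were lower and 0 higher (7.79% called, median -0.10). That lower count was 12 with quantile normalization, 3 without spleen replicate 3, and 2 with median centring, without bone marrow replicate 1 or 3, without spleen replicate 4, or with spleen replicates 3 and 4 both removed. Mrpl13 was its member with the largest fall (1.71-fold), followed by Mrps28 (1.33-fold).

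**Figure D5:**
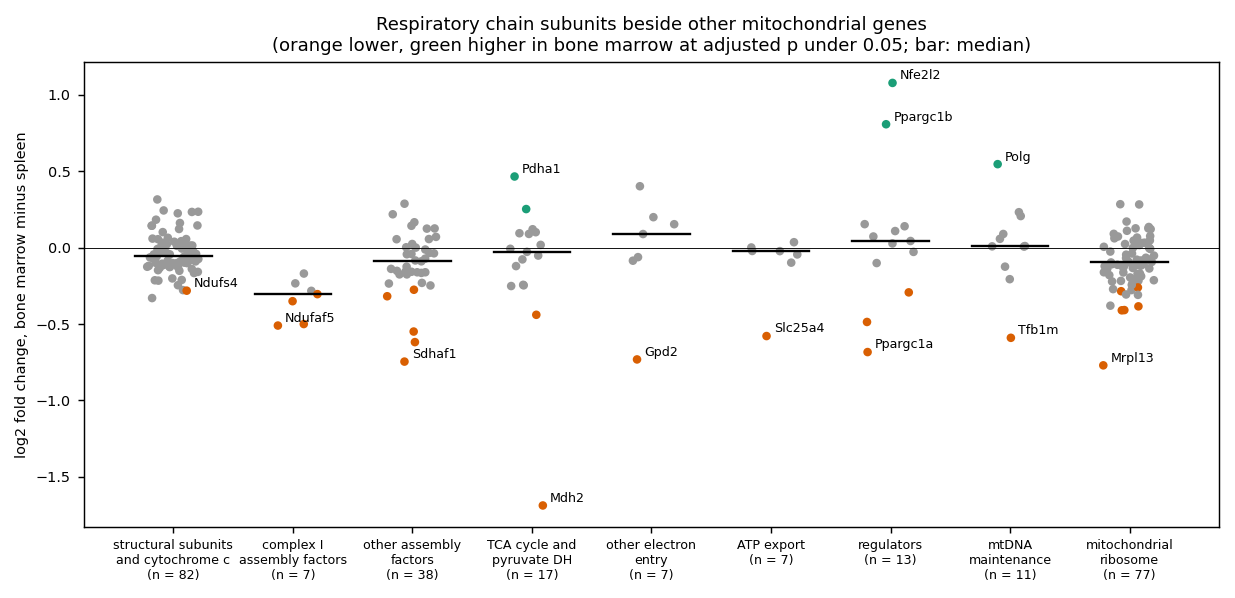
Log2 fold change (y axis, bone marrow minus spleen) of every gene of the respiratory chain and of the lists of other mitochondrial genes, with the list median as a bar. Green genes were called higher and orange genes lower in bone marrow: Mdh2 at -1.69 and Nfe2l2 at 1.08 lie furthest out, while the 82 subunits and cytochrome c lie between -0.33 and 0.31.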

How the data were processed

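The authors deposited 1 intensity per probe set and array. Per the submitters' processing notes the software was Affymetrix Expression Console 1.4, and how it corrected, normalized and summarized the probes is not stated there. The intensities were linear and all above 0, with near-equal medians. Scanner files were not used here, and array intensities carry no read depth, so the number of arrays limits the precision.

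Of 35556 probe sets, 21789 had exactly 1 gene symbol in a platform annotation of 2016, 1621 had several and 12146 had none there. The brightest single-symbol probe set over the 8 arrays stood for a gene, which left 19938 genes. Of the 90 respiratory chain genes 18 had more than 1 probe set. Log2 values of the deposited intensities went into limma 3.58.1 (R 4.3.3; lmFit, then eBayes) over all genes, with no filter, and the p-values were adjusted over all genes. The script was tested on simulated data. In the description labels, arrays with the same replicate number carry the same sample number in both tissues. It is read here as the number of a mouse, though the labels do not say so in words. Deviations from the group mean correlated across genes between the arrays of mice 1 to 4 with r of 0.096, -0.088, -0.18 and -0.054, and the fit with the mouse as a block was an alternative, because no source names a block.

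The genes and lists were chosen with earlier results of these data known. Genes are named by a rule: per complex up to 3 called genes in each direction or, with none called, the gene with the largest fold change, together with isoform families, catalytic subunits, genes whose call changed with a setting, and up to 2 called genes per direction of each related list. Genes named outside it were chosen after their values were seen.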

Additional observations from a re-analysis of the deposited data

Results flagged for a closer look

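In 84 groups of 4 values (the named genes and the mean level of each complex), 5 had an array far from the other 3 by Dixon's criterion, and chance marks about 5% of groups. A pair of genes stood out in spleen replicate 4: Ndufv1 at 665, with the other spleen arrays between 904 and 938, and Cox6b1 at 5759, with the others between 4527 and 4708. Cox6b1 also stood out in bone marrow replicate 4, at 5068, with the other bone marrow arrays between 4743 and 4779. Cox6b2 stood at 232 in bone marrow replicate 3, with the others between 313 and 331. Uqcrc2 stood at 1914 in spleen replicate 1, with the others between 2302 and 2359. None of these 4 genes was called with all arrays.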

How the results depend on the processing

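Over 16 alternatives the median log2 fold change of the 90 genes lay between -0.11 and -0.035 and that of the assembly factors between -0.36 and -0.28. Without 1 array at a time, the count of lower genes ranged from 2 to 5 and that of higher genes from 0 to 1. In complex I the lower count ranged from 0 to 1, in complex II the higher count from 0 to 1, in complex IV both counts from 0 to 1, and among the assembly factors the lower count from 2 to 4. The replicate block gave 3 lower genes and 0 in complex I, where Ndufs4 no longer passed, and the same holds without spleen replicates 3 and 4 together, an alternative chosen after seeing the data (3 and 0). With structural subunits alone, 1 gene was lower. Quantile normalization called 1 gene lower in complex III (Uqcrc2) and 1 in complex IV (Ndufa4). The block ended the calls of Ndufs4, Ndufaf7 and Idh3g and of no other gene named here from the 90 or the related lists. The causes were not tested. No call among the genes named from the 90 or the related lists changed its direction. With no detection call, the dim isoforms and Ppargc1a remain limited by an unknown background.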
